A study of Rattus norvegicus with 6 samples.

Results

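The regions described here are stretches of rat chromatin that were listed as DNase I hotspots after either of 2 stimuli and in neither library of resting cells. A hotspot is an interval of clustered DNase I cuts on the authors' lists. A counted region belonged to the set if it overlapped by at least 1 bp a hotspot in both libraries of each stimulus and none in both untreated libraries. Of 129499 counted regions, 2207 (1.70%) met this rule, and they are called the shared stimulus regions. The rule read the hotspot lists of all 6 libraries, so that higher counts in stimulated than in untreated libraries were built into the choice. Fits against untreated cells are therefore given as a description of the set, and GCM against LPS is the comparison whose test is read.

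DNase I-seq was carried out on microglia, macrophage-like immune cells that live in the brain, cultured from the cerebral cortex of 1-day-old Wistar rat pups. Each culture pooled 10 to 15 pups, was kept for 2 weeks in medium with 10% serum, and the recovered microglia rested for 48 h. Cells were left untreated, given lipopolysaccharide (LPS) from Salmonella enteritidis at 100 ng/mL for 6 h, or given glioma-conditioned medium (GCM) for 6 h, with 2 libraries per group. GCM was harvested after 24 h from C6, an established rat glioma line grown in medium with serum, so it is a mixture and its dose is not given. DNase I was applied to the nuclei at 0.2 to 3.2 U for 10 min, and material from 3 concentrations was used. The files do not tie regions to genes, and each site is given by its position on build rn5 alone. The labelled cell type was not checked against marker genes for the same reason. Pooled pups and bulk nuclei mean that a low count in a region may come from few cells with the site open or from little cutting in every cell, and these cannot be told apart.

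DNA wrapped around nucleosomes is largely shielded from DNase I, whereas promoters, enhancers and other regulatory elements bound by transcription factors are cut readily. Microglia sense LPS through the receptor TLR4, whose signalling activates factors such as NF-kB and AP-1 that bind at enhancers, including sites that were poorly accessible before. Glioma cells release factors that draw microglia to the tumour and shift them towards a state that differs from the inflammatory one raised by LPS.

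Counts in the 129499 regions totalled 11.1 M (replicate 1) and 7.14 M (replicate 2) in untreated cells, 9.82 M and 12.4 M after LPS, and 8.26 M and 12.1 M after GCM. Values are CPM, counts scaled to these totals after TMM adjustment, and libraries are given in the order replicate 1, replicate 2. The hotspot lists held 160868 and 107489 intervals for untreated cells, 138554 and 152869 after LPS, and 125497 and 136057 after GCM, so the longest and the shortest list both came from untreated cells. The median shared stimulus region held 28 and 19 counts at rest, 39 and 45 after LPS and 29 and 47 after GCM, which limits the precision of any single region.

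The shared stimulus regions were weakly cut sites at rest and were still modest ones after stimulation. Their median level was 2.51 and 2.66 CPM in the untreated libraries, 3.96 and 3.67 CPM with LPS, and 3.56 and 3.85 CPM with GCM. The LPS and GCM libraries thus stood close together and above both untreated libraries. In the 69548 regions with a hotspot in all 6 libraries the lowest library median was 8.98 CPM and the highest 9.18 CPM. Per kilobase of region, the median of the shared stimulus regions was 8.24 and 8.60 CPM untreated, 12.7 and 12 CPM with LPS and 11.6 and 12.3 CPM with GCM, against 16.3 to 16.7 CPM in the regions with hotspots throughout. Stimulated levels per kilobase thus remained below those of the constant sites in every library. Together the shared stimulus regions took 0.603% and 0.617% of counts at rest, 0.951% and 0.892% after LPS and 0.831% and 0.913% after GCM.

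**Figure D1:**
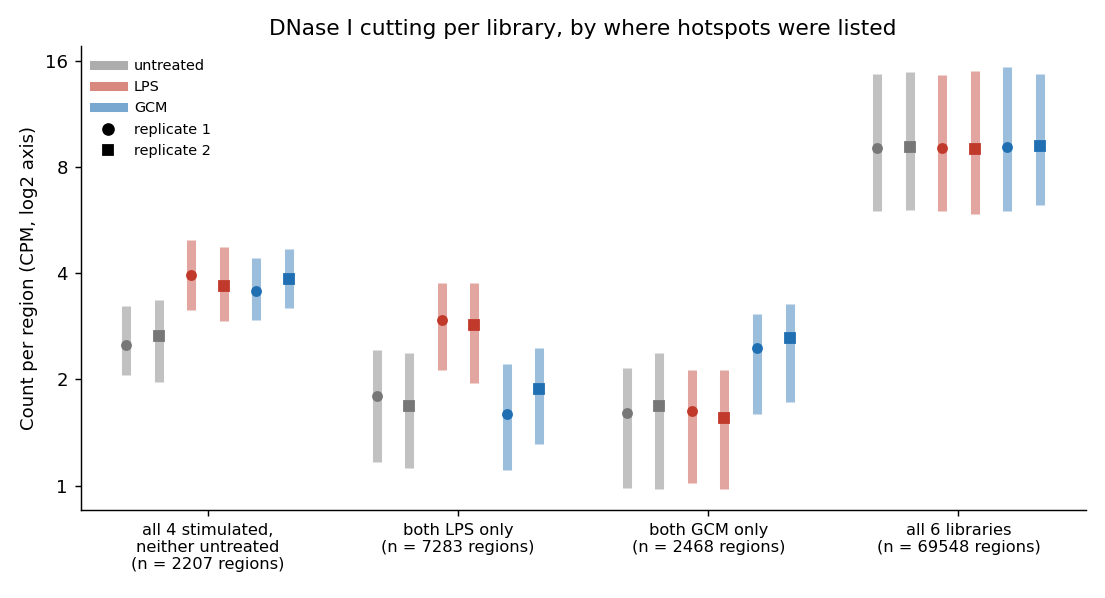
Level per region in each library (CPM on a log2 axis) for 4 kinds of region, with the median as a point and the range from lower to upper quartile as a bar. In the shared stimulus regions (left) the 2 LPS and 2 GCM medians lie between 3.56 and 3.96 CPM and the untreated ones at 2.51 and 2.66 CPM, whereas the medians of regions with hotspots in all 6 libraries lie near 9 CPM in every library.

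Regions tied to 1 stimulus held fewer counts per region and were narrower. The 7283 regions with hotspots in both LPS libraries and in no other had medians of 1.79 and 1.68 CPM untreated, 2.95 and 2.86 CPM with LPS and 1.60 and 1.88 CPM with GCM. The 2468 regions with hotspots in both GCM libraries and in no other had medians of 1.61 and 1.68 CPM untreated, 1.63 and 1.55 CPM with LPS and 2.46 and 2.62 CPM with GCM. Before any stimulus the shared regions therefore held more counts per region than either of these sets. Per kilobase the sets lay closer. Untreated medians were then 8.24 and 8.60 CPM in the shared regions. They were 7.66 and 7.58 CPM in the LPS-only and 8.10 and 8.41 CPM in the GCM-only regions. With LPS, the shared regions had 12.7 and 12 CPM per kilobase and the LPS-only regions 12.3 and 12 CPM. With GCM, the shared and the GCM-only regions both had 11.6 and 12.3 CPM per kilobase. Width moved along with the level per region. Its median was 308 bp in the shared stimulus regions, 239 bp in the LPS-only and 202 bp in the GCM-only regions. It was 549 bp in regions with hotspots throughout and 370 bp over all counted regions. Widths of the shared stimulus regions ran from 44 to 1330 bp, and the 2207 covered 0.722 Mb in all. Ranked by the authors' hotspot score within each list, the hotspots over shared stimulus regions stood at a median of 43.9% and 46.3% of the LPS lists and 32.5% and 37.0% of the GCM lists (100% is the highest score).

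Absence from the untreated hotspot lists did not mean absence of cutting. Both LPS libraries lay above both untreated ones in 1831 of the 2207 regions (83.0%), against 27.6% of all counted regions, and both GCM libraries did so in 1784 (80.8%), against 23.4%. All 4 stimulated libraries lay above both untreated ones in 1593 regions (72.2%), against 11.6% of all. In the other 614 regions at least 1 stimulated library reached down into the untreated range. The mean of the LPS libraries was below the untreated mean in 60 regions and that of the GCM libraries in 81, against 50.1% and 50.3% of all regions. By the edgeR fit, 293 of 2204 regions (13.3%) were more than 2-fold above untreated cells with LPS and 222 (10.1%) with GCM, against 2.50% and 0.811% of all tested regions.

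Only 1 region had every stimulated library below both untreated ones, which over all counted regions was the case for 12.2%. This region, at 61351731 to 61352080 on chromosome 19, held 4.39 and 4.76 CPM untreated, 3.86 and 4.08 CPM with LPS and 4.06 and 3.93 CPM with GCM, and it is singled out here after its values were seen. It was listed as a hotspot in the 4 stimulated libraries all the same, and the nearest untreated hotspot lay 6034 bp away.

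In the fit over all regions the median log2 fold change of the shared stimulus regions was 0.54 for LPS and 0.52 for GCM over untreated cells. With LPS 671 of the 2204 regions that passed the filter on low counts were called higher (adjusted p under 0.05, edgeR), where 6.71% of all tested regions were, and with GCM 261 were called higher, where 1.34% of all were. The number called lower was 0 in both comparisons with edgeR (3.14% of all regions with LPS and 0.231% with GCM) and with DESeq2, and 0 also at an unadjusted p under 0.05. DESeq2 called 73 higher with LPS, where it called 0.558% of all regions higher, and 3 higher with GCM, which were the only such calls among all regions (0.00232%). The rule used these contrasts, which also share their untreated libraries, so nothing is read from the counts. They moved with single libraries. Leaving out any library of a comparison gave fewer calls, in these regions and over all tested regions. Most calls with GCM were lost without untreated replicate 1, untreated replicate 2 or GCM replicate 2, again in both. The medians moved little, from 0.50 to 0.59 for LPS and from 0.47 to 0.55 for GCM when any library was left out. The authors' deposited table, at a false discovery rate below 0.05, lists 628 of these regions as higher with LPS and 286 as higher with GCM, among 6.43% and 1.49% of all its regions.

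The 12 regions with the widest gap between stimulated and untreated libraries lay on 8 chromosomes. They were ranked by the smallest ratio between any stimulated and any untreated library, so none of their groups overlapped by choice. First was a 370 bp region at 69559168 to 69559537 on chromosome 17, with 1.07 and 1.82 CPM untreated, 6.40 and 5.63 CPM with LPS and 4.30 and 5.57 CPM with GCM. The nearest untreated hotspot was 32449 bp away, so this site stood alone at rest. The second, at 50747378 to 50747729 on chromosome 11, held 2.60 and 1.96 CPM untreated, 6.09 and 5.63 CPM with LPS and 6.02 and 6.47 CPM with GCM. Both stimuli reached the same range there. The third, at 32563564 to 32563969 on chromosome 18, held 1.79 and 0.701 CPM untreated, 5.89 and 4.73 CPM with LPS and 3.93 and 5.65 CPM with GCM.

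Next came 168258515 to 168258895 on chromosome 1, with 2.06 and 1.40 CPM untreated, 5.79 and 4.73 CPM with LPS and 4.42 and 4.51 CPM with GCM. The sixth region, also on chromosome 1 at 235868703 to 235869239, was the widest of the 12 at 537 bp and held 1.61 and 3.08 CPM untreated, 7.52 and 6.36 CPM with LPS and 8.23 and 8.77 CPM with GCM. It had the highest GCM level of the 12, above both its LPS libraries. The next, at 69914264 to 69914530 on chromosome 17, held 1.43 and 0.981 CPM untreated, 4.77 and 3.18 CPM with LPS and 3.44 and 6.72 CPM with GCM. Its GCM libraries were further apart than those of its neighbours in the ranking, and the LPS libraries fell between or below them. Without GCM replicate 1 the GCM-to-LPS difference of this region was 0.79 and passed the test (adjusted p = 0.0283, edgeR), and without GCM replicate 2 it was -0.17 (adjusted p = 0.845).

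The ninth, at 131746698 to 131747148 on chromosome 5, held 2.51 and 3.08 CPM untreated, 8.02 and 7.34 CPM with LPS and 6.27 and 7.29 CPM with GCM. The other members of this ranking lay on chromosomes 1, 16 and 20. Over the 12, the fitted change from untreated cells ran from 2.47-fold to 4.34-fold with LPS and from 2.41-fold to 4.26-fold with GCM. Only the twelfth, at 4298134 to 4298405 on chromosome 6, differed between the stimuli by the test. It held 1.25 and 1.54 CPM untreated, 3.55 and 3.26 CPM with LPS and 6.02 and 5.74 CPM with GCM, which is 0.78 ± 0.200 higher with GCM (log2 ± SE, adjusted p = 0.00883, edgeR). This call was lost under whole-library scaling (adjusted p = 0.0838, edgeR), in DESeq2 (0.590), without LPS replicate 2 (0.111) and without GCM replicate 2 (0.0595). For the other 11 the GCM-to-LPS difference missed the threshold, with adjusted p-values of 0.221 to 0.876 (edgeR).

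**Figure D2:**
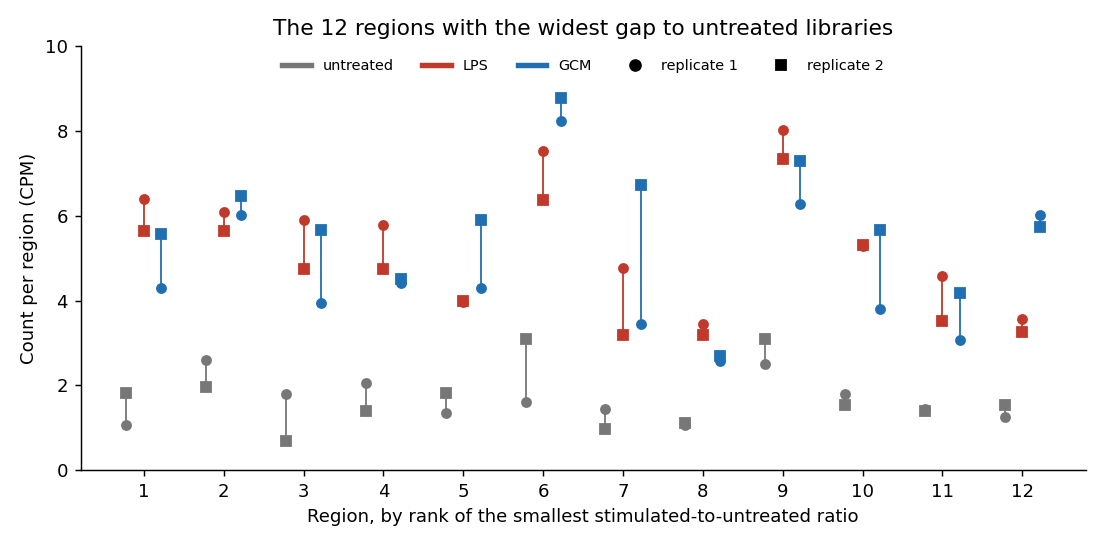
Level (CPM) in each library of the 12 regions with the widest gap between stimulated and untreated libraries, in rank order along the x axis, with a line joining the 2 libraries of a group. Untreated libraries stay at or below 3.08 CPM, and in each region the LPS and GCM points lie above its untreated points, with the widest separation of GCM from LPS in the twelfth, at 6.02 and 5.74 CPM against 3.55 and 3.26 CPM.

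The direct comparison of GCM with LPS asks whether a site listed under both was cut to the same degree. The rule asked for hotspots under both stimuli, without naming a direction between them, and it removed regions without a hotspot in any 1 of the 4 stimulated libraries. The lists differed in length and in the score ranks given above, and whether the rule was equally strict for both stimuli was not tested. Most shared stimulus regions did not differ by this test. Of the 2204 tested, 133 (6.03%) were called, against 8.58% of all tested regions, and the median log2 difference was -0.03, with the middle 90% between -0.57 and 0.47. Lower with GCM, and so higher with LPS, were 101 (4.58%), near the 4.84% over all regions. Higher with GCM were 32 (1.45%), against 3.75% over all regions. Of the calls among shared stimulus regions 24.1% were higher with GCM, and of all calls 43.6% were. The lean towards LPS was not particular to this set. With hotspots in all 4 stimulated libraries and in 1 untreated one, the share was 27.3% (157 higher with GCM, 419 with LPS). With hotspots in 3 stimulated libraries and in neither untreated one, it was 21.98% (102 and 362). In regions with hotspots in all 6 libraries it was 60.9% (2430 and 1563). The differences between these shares were not tested. An effect under the threshold is not shown to be equal, since the median SE of a region's log2 difference was 0.22.

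Both GCM libraries lay above both LPS libraries in 432 shared stimulus regions (19.6%), against 24.2% of all counted regions. The reverse held for 612 (27.7%), against 25.1%. The count of calls depended on the scaling and on single libraries. Scaled to whole-library totals, 3 regions were higher with GCM and 67 higher with LPS, so that 4.29% of calls were higher with GCM, beside 17.7% over all regions under that scaling. Leaving out any 1 library gave fewer calls, in these regions and over all tested regions. The median log2 difference, -0.03 with all libraries, was -0.05 without LPS replicate 2 and -0.07 without GCM replicate 2. It was 0.02 without LPS replicate 1 and -0.01 without GCM replicate 1, so the lean towards LPS did not hold in each of these fits to the same degree. Over all tested regions the median stayed between -0.01 and 0.01 in these fits. DESeq2 called 9 regions (adjusted p under 0.05), each higher with LPS, where it called 0.550% of all regions in either direction, and at an unadjusted p under 0.05 DESeq2 had 16 (0.725%) higher with GCM and 84 (3.81%) higher with LPS, beside 2.97% and 3.77% of all regions. In edgeR these were 115 (5.22%) and 228 (10.3%), beside 10.8% and 11.3%. Calls higher with LPS outnumbered those higher with GCM under each of these scalings and tests.

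**Figure D3:**
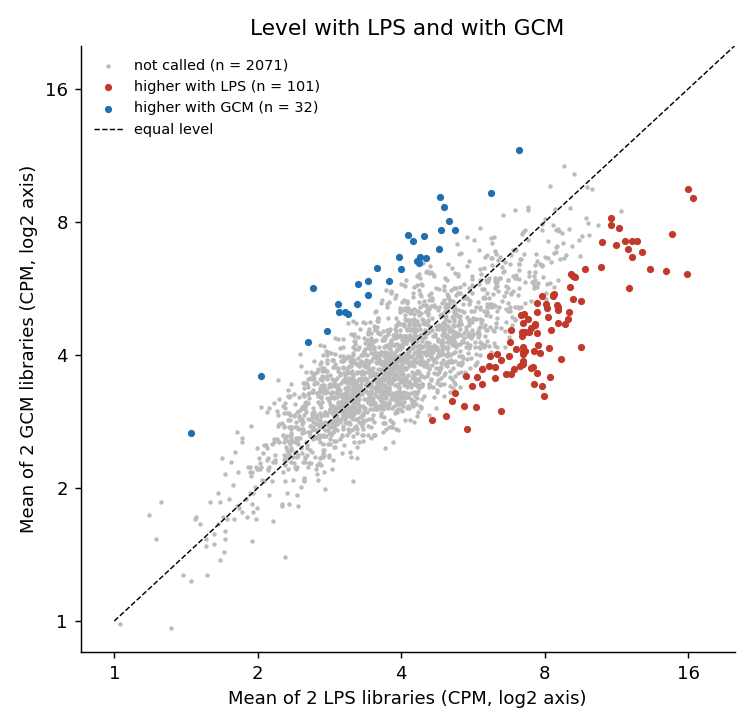
Mean of the 2 GCM libraries against the mean of the 2 LPS libraries (CPM, log2 axes) for the 2204 tested shared stimulus regions, coloured by the edgeR call at an adjusted p under 0.05. Most points (2071, grey) scatter about the dashed line of equal level, 101 lie below it (higher with LPS) and reach the highest LPS levels, and 32 lie above it (higher with GCM).

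The 101 regions higher with LPS were wider than the uncalled ones, and levels per kilobase were not compared between them. Their median width was 423 bp, against 303 bp in the 2071 regions not called, and their medians were 3.49 and 3.64 CPM untreated, 7.72 and 7.83 CPM with LPS and 4.55 and 4.59 CPM with GCM. The GCM medians thus lay between the untreated and LPS medians. A GCM level below LPS was required by the call, and one above untreated was favoured by the rule. The GCM mean exceeded the untreated mean in 96 of the 101 and in 1995 of the 2071 not called. They also held more counts, with a median over the 6 libraries of 48.5, against 34 where no call was made. The log2 difference ran from -1.35 to -0.47, and 13 of the 101 differed by more than 2-fold.

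The strongest of these by p-value lay on chromosome 2 at 242921121 to 242921775. It held 4.57 and 5.75 CPM untreated, 16.5 and 15.3 CPM with LPS and 5.28 and 6.88 CPM with GCM, a GCM-to-LPS difference of -1.35 ± 0.152 (log2 ± SE, adjusted p = 1.11e-07, edgeR). The GCM libraries overlapped the untreated ones at this site, although hotspots were listed in both. It was followed by 68920405 to 68921065 on chromosome 6, with 4.12 and 3.92 CPM untreated, 14.8 and 14 CPM with LPS and 4.92 and 7.46 CPM with GCM (-1.16 ± 0.156, adjusted p = 2.29e-06, edgeR). Here both GCM libraries were above both untreated ones and far under the LPS libraries. An untreated hotspot ended 191 bp away from this region.

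Another region, at 211108639 to 211109212 on chromosome 2, held 3.67 and 3.64 CPM untreated, 12 and 12 CPM with LPS and 6.51 and 4.83 CPM with GCM (-1.12 ± 0.162, adjusted p = 7.72e-06, edgeR). The fourth, at 60563829 to 60564580 on chromosome 13, held 4.39 and 4.91 CPM untreated, 15.0 and 11.6 CPM with LPS and 6.02 and 6.47 CPM with GCM (-1.06 ± 0.158, adjusted p = 1.18e-05, edgeR). In both of these GCM reached an intermediate level that cleared the untreated libraries. The fifth was narrower (274 bp), at 172379681 to 172379954 on chromosome 1, and held 2.51 and 2.94 CPM untreated, 7.21 and 8.73 CPM with LPS and 3.20 and 3.28 CPM with GCM (-1.31 ± 0.198, adjusted p = 1.56e-05, edgeR). All 5 kept their calls in DESeq2, under whole-library scaling and without any 1 library.

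The 5 shared stimulus regions with the highest mean stimulated level, 10.3 to 12.7 CPM, were all called higher with LPS. The ranking used the same LPS and GCM libraries as the test, so a high LPS level alone could place a region here. It also used counts per region, and the 5 were 655 to 1330 bp wide, against a median of 308 bp. No conclusion on the link between level and stimulus is drawn from these calls. The region at 52737978 to 52738880 on chromosome 5 held 6.81 and 6.17 CPM untreated, 15.9 and 16 CPM with LPS and 8.73 and 10.2 CPM with GCM (-0.73 ± 0.137, adjusted p = 0.000328, edgeR). The widest of all 2207, 1330 bp at 70070280 to 70071609 on chromosome 10, held 7.43 and 9.95 CPM untreated, 15.2 and 17.5 CPM with LPS and 7.74 and 10.4 CPM with GCM (-0.82 ± 0.148, adjusted p = 0.000198, edgeR). At 17808847 to 17809760 on chromosome 9 the levels were 8.60 and 7.15 CPM untreated, 14.1 and 15.4 CPM with LPS and 6.39 and 8.60 CPM with GCM (-0.95 ± 0.150, adjusted p = 3.07e-05, edgeR). In the last 2 the GCM and untreated libraries overlapped, with fitted log2 changes of 0.14 and -0.06 for GCM over untreated cells. A hotspot listed under both stimuli therefore did not entail a similar rise in counts. The calls on chromosomes 5 and 10 were lost in DESeq2 (adjusted p = 0.113 and 0.0691). The other two of the 5 highest were the first pair of the ranking by p-value, on chromosomes 2 and 6.

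Of the 5 widest regions, 882 to 1330 bp, 3 were among those just described. The other two did not differ between the stimuli by the test. At 45785708 to 45786676 on chromosome 17 the levels were 7.34 and 7.57 CPM untreated, 8.84 and 9.63 CPM with LPS and 9.59 and 11 CPM with GCM (0.17 ± 0.147, adjusted p = 0.571, edgeR). At 18526899 to 18527780 on chromosome 14 they were 5.37 and 6.31 CPM untreated, 10.8 and 9.87 CPM with LPS and 7.99 and 7.78 CPM with GCM (-0.39 ± 0.152, adjusted p = 0.111, edgeR). The groups of that region did not overlap, and the LPS libraries were the highest.

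The 32 regions higher with GCM had medians of 2.69 and 2.87 CPM untreated, 4.06 and 3.63 CPM with LPS and 5.78 and 7.21 CPM with GCM, a median width of 355 bp and log2 differences from 0.57 to 1.20. At rest they were nearer to the uncalled regions (2.51 and 2.52 CPM) than were the LPS-higher ones. By p-value the first was at 32571458 to 32571843 on chromosome 13, with 2.51 and 2.38 CPM untreated, 5.59 and 4.08 CPM with LPS and 8.23 and 10.0 CPM with GCM (0.96 ± 0.179, adjusted p = 0.000335, edgeR). LPS stood clear of the untreated libraries there, and GCM clear of LPS. The second, at 238626878 to 238627162 on chromosome 1, held 2.15 and 1.54 CPM untreated, 2.95 and 2.28 CPM with LPS and 4.18 and 7.13 CPM with GCM (1.20 ± 0.235, adjusted p = 0.000595, edgeR). GCM replicate 2 stood apart at this site, and the call was lost without it (adjusted p = 0.231, edgeR).

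Next was a region of 823 bp at 156223713 to 156224535 on chromosome 6, with 4.84 and 5.33 CPM untreated, 8.02 and 6.12 CPM with LPS and 11.7 and 11.6 CPM with GCM (0.73 ± 0.155, adjusted p = 0.00148, edgeR). The fourth, at 60185362 to 60186091 on chromosome 9, held 4.12 and 3.50 CPM untreated, 4.67 and 5.14 CPM with LPS and 8.48 and 8.77 CPM with GCM (0.81 ± 0.173, adjusted p = 0.00168, edgeR). Its LPS libraries were barely above the untreated ones. The fifth, also on chromosome 9 at 33398121 to 33398527, held 3.22 and 3.50 CPM untreated, 5.08 and 3.18 CPM with LPS and 6.76 and 8.19 CPM with GCM (0.91 ± 0.199, adjusted p = 0.00208, edgeR). LPS replicate 2 was at the untreated level at this site, which lay 2295 kb from the nearest region with hotspots in all 6 libraries. None of the 5 was called by DESeq2 (adjusted p from 0.188 to 0.336). Whole-library scaling ended the calls of the regions on chromosomes 6 and 9 at 156223713 and 60185362 (adjusted p = 0.0898 and 0.0526, edgeR), leaving out LPS replicate 2 those of the regions at 156223713 and 33398121 (0.0824 and 0.144), and leaving out GCM replicate 2 also that of the region at 33398121 (0.108).

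Some regions had nearly the same fitted level under both stimuli. Among those at or above the median level, the 5 with the smallest GCM-to-LPS difference had adjusted p-values of 0.999 or more (edgeR). These p-values follow from the choice of the regions and are no sign of equal levels. The clearest rise was at 67660488 to 67660957 on chromosome 9, with 2.51 and 2.52 CPM untreated, 7.72 and 4.49 CPM with LPS and 6.14 and 5.82 CPM with GCM. The LPS libraries enclosed both GCM libraries there, and all 4 were well above rest. At 31016322 to 31016620 on chromosome 6 the levels were 2.60 and 3.22 CPM untreated, 4.06 and 4.00 CPM with LPS and 3.44 and 4.42 CPM with GCM. The SE of these differences was 0.198 to 0.219 on the log2 scale, so a difference of that order could not be seen. The region on chromosome 19 with stimulated levels below rest was also among the 5.

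The replicates of each stimulus ranked the difference between the stimuli alike to a moderate degree. The regions are not independent replicates. Across all 2207, the log2 difference between GCM replicate 1 and LPS replicate 1 and that between GCM replicate 2 and LPS replicate 2 had a Pearson r of 0.441, against 0.485 over all regions. Pairing the replicates the other way gave 0.439 and 0.487. The SD of the log2 difference between replicates within a group was 0.309 untreated, 0.250 with LPS and 0.247 with GCM.

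At the edge of the rule, the levels of regions inside and outside it ran into each other. The 9270 regions with hotspots in all 4 stimulated libraries and in 1 untreated library had medians of 4.03 and 3.36 CPM untreated, 4.47 and 4.32 CPM with LPS and 4.30 and 4.42 CPM with GCM. Their stimulated medians were above those of the shared stimulus regions, and so were their untreated ones. The 6203 regions with hotspots in 3 stimulated libraries and in neither untreated one had 1.97 and 1.96 CPM untreated, 2.74 and 2.61 CPM with LPS and 2.46 and 2.70 CPM with GCM. Just inside, by the lowest hotspot scores, was 79960818 to 79961009 on chromosome 5, with 1.34 and 1.82 CPM untreated, 1.93 and 1.71 CPM with LPS and 1.72 and 2.62 CPM with GCM. Just outside, with 2 bp of overlap with an untreated hotspot, was 68957113 to 68957420 on chromosome 18, with 3.13 and 2.24 CPM untreated, 4.47 and 3.59 CPM with LPS and 4.30 and 4.34 CPM with GCM. The same rules named 2 more regions on either side. Over the 3 inside, the fitted change from untreated cells was 1.15-fold to 1.29-fold with LPS and 1.16-fold to 1.47-fold with GCM. Of the 3 outside, the one printed had log2 changes of 0.51 with LPS and 0.63 with GCM, that at 54713553 on chromosome 10 had log2 changes of 0.47 with LPS and -0.11 with GCM, and that at 36428894 on chromosome 19 had -0.05 and -0.08.

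Many of the shared stimulus regions lay close to a hotspot of resting cells without touching it. The median distance to the nearest untreated hotspot was 1619 bp, with 522 regions under 500 bp, 76 under 100 bp and 242 over 10 kb, and the closest was 5 bp away. Levels in the 522 nearest were 2.78 and 2.80 CPM untreated, against 2.51 and 2.52 CPM in the other 1685, and 3.96 and 3.84 CPM with LPS, against 3.96 and 3.67 CPM. The near ones thus held slightly more counts at rest. To the nearest region with hotspots in all 6 libraries the median distance was 3.93 kb, and 31.4% of the shared stimulus regions lay within 2 kb of such a region, between the 28.1% of LPS-only and the 36.3% of GCM-only regions.

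Sites that were open throughout were also somewhat higher after stimulation when they lay near a shared stimulus region. Of the regions with hotspots in all 6 libraries, 782 lay within 2 kb of a shared stimulus region (centre to centre). With GCM, 30 of them (3.84%) were called higher than untreated, against 1.03% of all such regions called higher, and their median log2 change was 0.09, against -0.01 (edgeR). With LPS, 50 (6.39%) were called higher, against 3.68%, and the median was 0.03, against -0.03. The shares fell with distance, to 0.821% with GCM and 3.31% with LPS at 100 to 1000 kb. These regions share their untreated libraries with the rule, and the difference between near and far regions was not tested.

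**Figure D4:**
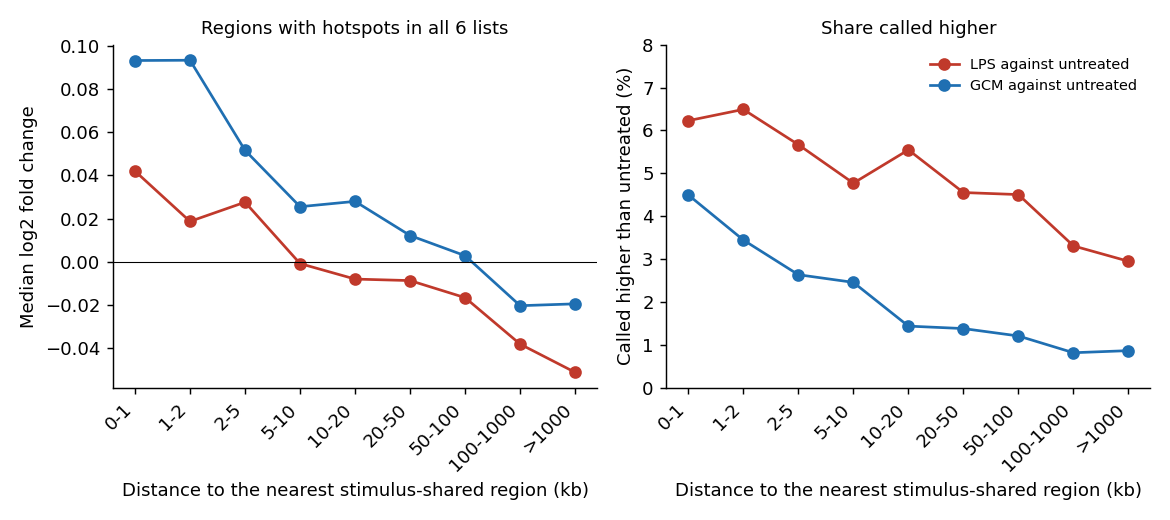
Regions with hotspots in all 6 libraries, grouped by distance to the nearest shared stimulus region (kb, x axis), with their median log2 change from untreated cells (left) and the percentage called higher by edgeR (right). For GCM the percentage is 4.50% within 1 kb and 0.821% at 100 to 1000 kb, and for LPS it is 6.23% and 3.31%.

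The surroundings of regions called between the stimuli were described by the constant sites near them. Within 10 kb of the 101 LPS-higher regions lay 170 regions with hotspots in all 6 libraries, and their median GCM-to-LPS log2 difference was 0.04, the same as the 0.04 of the 2946 near uncalled regions. Of the 170, 5 (2.94%) were higher with LPS and 8 (4.71%) higher with GCM, where 2.25% and 3.49% of all regions with hotspots throughout were. Around the 32 GCM-higher regions there were 36, with a median of 0.17, of which 4 (11.1%) were higher with GCM and 1 (2.78%) higher with LPS. The difference between these surroundings was not tested, and 36 regions are few. Neighbouring shared stimulus regions at most 50 kb apart formed 273 tested pairs, and their GCM-to-LPS differences had the same sign in 134.

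Clusters held a minority of the shared stimulus regions, and their number was not compared with that in other sets. Another member of the set lay within 50 kb of 508 regions (23.0%), which formed 201 pairs, 30 groups of 3 and 4 groups of 4, and the median gap between neighbours was 531.7 kb. In 4 neighbouring pairs both regions touched a single hotspot of a stimulated list. The longest group covered 103 kb of chromosome X, from 29036163 to 29138958, and its 4 regions averaged 1.70 and 2.07 CPM untreated, 3.28 and 2.84 CPM with LPS and 3.16 and 3.50 CPM with GCM. Another on chromosome 20, from 29754416 to 29797326, averaged 1.81 and 2.28 CPM untreated, 3.28 and 3.26 CPM with LPS and 3.66 and 4.63 CPM with GCM. It begins with the fifth region of the widest-gap ranking, and all its 4 regions had a GCM-to-LPS log2 difference between 0.35 and 0.40. The groups on chromosomes 10 and 1 began at 99484049 and 138156864. No region of the 4 groups was called between GCM and LPS (adjusted p from 0.0596 to 0.975, edgeR). The lowest p belonged to the first region on chromosome 1, with 2.46 and 5.98 CPM in the GCM libraries, where replicate 2 stood apart. Its log2 difference of 0.77 was -0.11 without that library and 1.16 without the other (adjusted p = 0.923 and 0.00252, edgeR).

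Shared stimulus regions made up 1.28% (chromosome 10) to 1.94% (chromosome 13) of the counted regions of an autosome and 3.23% of those of chromosome X, 65 of 2013. Of the counted regions of the X, 4.72% were LPS-only, under the 5.62% over all chromosomes, and 2.93% were GCM-only, over the 1.91% over all chromosomes. Counted regions of the X had the lowest median untreated level, 3.84 CPM, and the smallest median width, 316 bp, of any chromosome. Its 65 shared stimulus regions had medians of 2.06 and 2.10 CPM untreated, 3.25 and 2.94 CPM with LPS and 3.20 and 3.61 CPM with GCM, of which 1 was called higher with GCM and 1 higher with LPS. The part that level and width play in the share on the X was not tested.

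**Figure D5:**
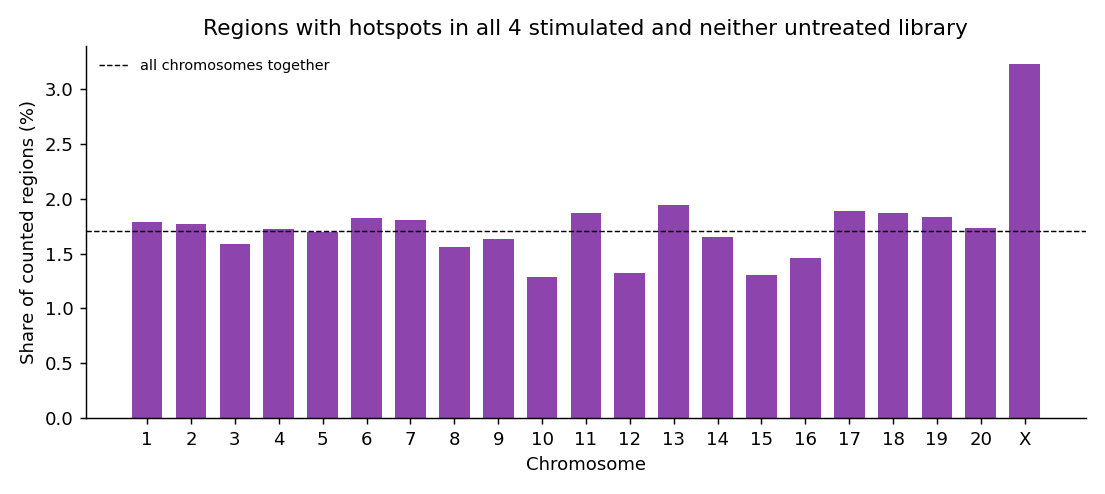
Percentage of each chromosome's counted regions that are shared stimulus regions, with a dashed line at the 1.70% over all chromosomes. Autosomes lie between 1.28% and 1.94%, and chromosome X stands at 3.23%.

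The 3 shared stimulus regions that did not pass the filter on low counts were 84, 66 and 51 bp wide. They lay at 41562201 on chromosome 11, 107362053 on chromosome 14 and 35428229 on chromosome 15, and no library exceeded 1.22 CPM at any of them.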

How the data were processed

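The 6 libraries were DNase I-seq of cultured rat microglia. The submitters' processing notes list the build rn5 and, among tools, Bowtie 1.1.2, cutadapt 1.8.3, DiffBind, edgeR, Picard 1.95 and SAMtools, and their order and settings are not given in the sources used here. Raw counts per region were deposited as 1 table. Per the file headers, the authors' comparison tables give log2 fold changes, p-values and their false discovery rates, a likelihood ratio score and CPM scaled to the whole library. The deposited hotspot lists give intervals and a score whose definition is not stated, and their names carry a false discovery rate of 0.01. Positions count from 1 on rn5. The authors' hotspot scores were used for ranks within a list only.

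Overlaps were taken with bedtools 2.31.1 (at least 1 bp). Counts of all regions were fitted in edgeR 4.0.16 (R 4.3.3), as group means of all 6 libraries in 1 quasi-likelihood model, with TMM scaling and the default filter at a minimum count of 10, which left 126284 regions. Tests were two-sided, with Benjamini-Hochberg adjustment over all of them and a threshold of 0.05, and the fit was tried on simulated counts first. The SE was derived from the fold change and its F statistic. The common biological coefficient of variation was 5.63%. Ratios between libraries used a prior of 0.5 CPM. The labels do not say whether replicates with the same number shared a culture, and with 2 libraries per group p-values measure the spread between these libraries.

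Regions named were, by rule, the 12 with the largest smallest stimulated-to-untreated ratio, the 5 called with the smallest p in each direction between GCM and LPS with no overlap of groups, the 5 highest, the 5 widest, the 5 least different at or above the median level, the longest runs with gaps of at most 50 kb (3 were asked for, and 4 tied), and the 3 just inside and just outside the rule, of which 1 each is printed per library. The set, these rules and the lists were chosen with earlier results of these data known. Alternatives covered scaling, filters, DESeq2 1.42.0, the likelihood ratio test, the libraries fitted, a replicate block, leaving out libraries, and stricter overlaps. Sequences and genes of the regions were not analysed here, since no genome of build rn5 was used.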

Additional observations from a re-analysis of the deposited data

Results flagged for a closer look

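The effects of GCM and LPS, each against the same untreated cells, differed by the direct test in 133 of the 2204 shared stimulus regions tested (6.03%, against 8.58% of all tested regions). The 10 named regions below are those with the smallest p in each direction among calls with no overlap between GCM and LPS libraries. All were tested with edgeR on 2 libraries per group.

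Higher with LPS were, by the log2 difference of GCM against LPS, the regions at 242921121 on chromosome 2 (-1.35), 68920405 on chromosome 6 (-1.16), 211108639 on chromosome 2 (-1.12), 60563829 on chromosome 13 (-1.06) and 172379681 on chromosome 1 (-1.31). In each of them both LPS libraries exceeded both GCM libraries, which the choice of regions required. Higher with GCM were those at 32571458 on chromosome 13 (0.96), 238626878 on chromosome 1 (1.20), 156223713 on chromosome 6 (0.73), 60185362 on chromosome 9 (0.81) and 33398121 on chromosome 9 (0.91). In these both GCM libraries exceeded both LPS libraries, again by the choice of regions.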

How the results depend on the processing

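The 133 calls of GCM against LPS among 2204 tested regions became 70 with whole-library totals, where 4.30% of all regions were called. With DESeq2 they became 9, where 0.550% of all regions were called. When each stimulated hotspot list had to cover at least 50% of the region, 85 of 1930 tested regions were called. Without the lowest 25% of hotspot scores, 60 of 804 tested regions were called, where 8.58% of all tested regions were. Higher with GCM were 20 of the 85 (23.5%) and 20 of the 60 (33.3%), beside 24.1% of the 133. The 85 and the 60 come from smaller sets, so a lower count need not mean a lower share of regions called. Leaving out 1 library gave 46 to 122 calls for GCM against LPS, 224 to 687 for LPS against untreated (671 with all) and 5 to 296 for GCM against untreated (261 with all). The counts over untreated cells were 73 (LPS) and 3 (GCM) with DESeq2, and the GCM count was 101 with whole-library totals. The set itself went from 2207 to 805 regions without the lowest 25% of scores. The mean of the 2 library medians, 2.58 CPM untreated, 3.82 CPM with LPS and 3.71 CPM with GCM, was then 2.70, 4.37 and 4.26 CPM, and with whole-library totals 0.292, 0.462 and 0.436 CPM, the last because all reads enter the divisor. The cause of the other shifts was not tested. A replicate block gave 159 calls for GCM against LPS, among them all 133, where 10.0% of all regions were called. Against untreated cells it gave 721 with LPS and 363 with GCM, where 7.44% and 2.04% of all regions were called higher. Same-numbered libraries deviated together with r of 0.05 (untreated and LPS), 0.11 (untreated and GCM) and -0.001 (LPS and GCM), so the numbers were not taken as pairs. None of the 133, 671 and 261 calls had the opposite sign in an alternative fit that gave it a value. Those fits reused the same libraries, and the rule favoured the sign of the 671 and 261, so no support is drawn from this. The 5 named LPS-higher regions kept their calls in every alternative fit, and the 5 named GCM-higher ones lost theirs with DESeq2. Counts of 19 to 47 per median region limit what a single region can show.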
